A study of Homo sapiens with 21 samples.

Results

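H1975 cells held in osimertinib for 8 days were compared between 2 arms that differed in how the insulin-like growth factor receptor was treated. H1975 is an established line from a human lung adenocarcinoma driven by mutant EGFR, and osimertinib blocks the kinase of that mutant receptor. In the arm Osi_cIGF1R, called the cIGF1R arm here, 500 nM osimertinib was joined with overexpression of cIGF1R, a circular RNA named after the IGF1R gene. In the arm Osi_Lin_EV, called the linsitinib arm, cells of genotype WT received the same dose of osimertinib with 500 nM linsitinib, which inhibits the kinases of IGF1R and of the insulin receptor. Its sample names also carry EV, which the labels do not spell out and which its treatment label does not repeat. Each arm held 3 libraries, taken by their labels, so that 6 of the 21 libraries of the series, and 6 of its 9 RNA-seq libraries, were compared. The other 3 RNA-seq libraries, DMSO_EV, were vehicle cells with EV kept for the same time, and served as the point from which the direction of each arm was read. The sources used here do not say how the circular RNA was delivered. Linsitinib and cIGF1R change together between the arms, and a group on osimertinib with EV and neither of them is not analysed here, so the parts of these 2 treatments cannot be told apart.

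The genes that separated the arms fall into pathways with well-known outlines. Interferons are secreted proteins that cells make when sensors such as RIG-I and MDA5 detect foreign-looking RNA or when DNA sensors such as cGAS detect DNA in the cytosol. They bind receptors that signal through JAK kinases to transcription factors, and these switch on antiviral effectors, antigen presentation and death ligands through a DNA element called the ISRE. IGF1R is a receptor tyrosine kinase of insulin-like growth factors that signals through IRS adaptors, PI3 kinase and AKT, and it is known as a bypass route in cells whose EGFR is blocked. The same PI3 kinase route feeds the SREBP factors, which drive genes of sterol and fatty acid synthesis.

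The promoters below are shown because the genes behind them gave the largest rises of 2 gene groups, the interferon-stimulated effectors and the MHC class I genes. They are RefSeq sequence of GRCh38.p14, 250 bases before to 50 after an annotated start, printed on the strand of the gene. For IFI27 the window is that of a start inside the gene, which the annotation begins at 94105894, and for the other genes it is that of the gene start. IFIT2, the effector that rose most, had no entry, and neither had OASL, which is listed with the nucleic acid sensors. Capitals mark each match to the core of the ISRE, searched on both strands as GAAA, any 2 bases, GAAA, or TTTC, any 2 bases, TTTC.
IFI27 (chr14:94110486-94110785, plus strand): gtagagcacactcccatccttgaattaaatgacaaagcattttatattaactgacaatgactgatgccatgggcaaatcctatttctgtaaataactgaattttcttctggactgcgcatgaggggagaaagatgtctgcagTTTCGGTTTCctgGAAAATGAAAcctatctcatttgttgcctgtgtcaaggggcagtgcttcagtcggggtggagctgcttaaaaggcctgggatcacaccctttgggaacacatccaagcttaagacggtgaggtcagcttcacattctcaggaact
IFIT3 (chr10:89327747-89328046, plus strand): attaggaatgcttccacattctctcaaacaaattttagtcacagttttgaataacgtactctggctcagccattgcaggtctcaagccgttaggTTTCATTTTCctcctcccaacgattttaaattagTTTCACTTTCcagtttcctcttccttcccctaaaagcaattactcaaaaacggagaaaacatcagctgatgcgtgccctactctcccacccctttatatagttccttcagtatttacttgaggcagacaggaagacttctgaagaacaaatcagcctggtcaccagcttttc
IFIT1 (chr10:89392373-89392672, plus strand): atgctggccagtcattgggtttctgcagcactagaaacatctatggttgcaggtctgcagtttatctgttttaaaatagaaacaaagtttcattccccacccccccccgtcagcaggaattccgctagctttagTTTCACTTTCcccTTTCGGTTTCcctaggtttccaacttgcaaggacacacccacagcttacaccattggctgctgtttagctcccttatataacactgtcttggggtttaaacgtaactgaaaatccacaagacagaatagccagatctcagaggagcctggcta
HLA-B (chr6:31357130-31357429, minus strand): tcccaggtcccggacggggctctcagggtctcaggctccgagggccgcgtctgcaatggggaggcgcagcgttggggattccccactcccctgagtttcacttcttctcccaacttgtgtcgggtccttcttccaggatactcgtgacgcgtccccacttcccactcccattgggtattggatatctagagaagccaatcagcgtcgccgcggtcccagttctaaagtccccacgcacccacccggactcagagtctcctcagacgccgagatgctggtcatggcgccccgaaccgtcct
HLA-F (chr6:29723184-29723483, plus strand): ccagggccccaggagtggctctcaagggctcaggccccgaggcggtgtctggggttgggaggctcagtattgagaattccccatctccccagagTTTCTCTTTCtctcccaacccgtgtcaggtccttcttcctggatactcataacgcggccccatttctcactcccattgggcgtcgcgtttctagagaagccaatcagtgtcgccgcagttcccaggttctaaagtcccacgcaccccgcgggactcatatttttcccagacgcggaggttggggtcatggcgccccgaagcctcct
The 3 effector promoters hold 2 matches each, HLA-F holds 1 and HLA-B holds none in this window, which says only that these letters are not there. Of the tested interferon-stimulated effectors with an entry, 25 of 32 (78.1%) held a match, as did 11 of 17 (64.7%) of the MHC class I genes, 4 of 11 (36.4%) of the nucleic acid sensors and 4 of 19 (21.1%) of the ligands, receptors and signal transducers of interferon. Over all tested genes with an entry the share was 389 of 9908 (3.93%), and over all genes with a promoter entry 1195 of 27305 (4.38%). A gene was counted when any of its start windows held a match. These matches describe the sequence and are not evidence of binding.

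The deposited values point to FPKM, the fragments of a gene scaled to gene length and library size, and without counts the depth is unknown and counting intervals are not possible. FPKM totals per library were 338034 to 381311 in the cIGF1R arm and 423319 to 432563 in the linsitinib arm. Pearson's r of log2(FPKM + 1) over 13775 genes, which are not independent replicates, was 0.987 to 0.994 within an arm and 0.888 to 0.906 between the arms. Replicates 1 and 2 of the cIGF1R arm lay closest, with a median absolute log2 difference of 0.0767 against 0.184 and 0.175 for each with replicate 3. Without counts, whether replicates 1 and 2 differ by more than sampling noise could not be tested; without replicate 1, 3233 genes were higher and 4277 lower between the arms, and without replicate 2, 3135 and 4298, beside the counts of the full set given next. Replicate 1 of that arm also stood apart on small RNAs made by RNA polymerase III, with RN7SL1 at 53.2 FPKM against 3.16 and 6.37 in the other libraries of that arm. RN7SL1 was at 25.8, 16.7 and 52.9 FPKM in the linsitinib arm and at 46.4, 443 and 36.1 in vehicle, where replicate 2 was the highest library. None of the 5 such RNAs tested was called between the arms. The labels do not state separate cultures for the replicates, so a p-value here reflects the spread among libraries, possibly only a technical one. Epithelial identity matched the label in part. EPCAM, a surface marker of epithelium, stood at 95.4, 92.9 and 112 FPKM in the cIGF1R arm and 86, 97.6 and 99.1 in the linsitinib arm, and keratins KRT8 and KRT18 were among the most abundant mRNAs. NKX2-1, a lineage factor of many lung adenocarcinomas, did not exceed 0.12 FPKM in either arm, and the surfactant genes SFTPB and SFTPC did not exceed 0.0236 FPKM in either arm.

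Of 13775 genes tested of 34021 in the table, 8356 (60.7%) passed between the arms, 3568 (25.9%) higher and 4788 (34.8%) lower in the cIGF1R arm (limma on log2(FPKM + 1), Benjamini-Hochberg adjusted p under 0.05). Differences in the text are means of log2(FPKM + 1) in the cIGF1R arm minus the linsitinib arm unless another pair is named, and on this scale the change of low genes is understated. Rescaling by the median of ratios turned this balance to 4438 higher and 3695 lower, that is, from 42.7% to 54.6% of the calls higher, as it moved the median of all genes from -0.087 to 0.025. As shares of all genes tested, 907 (6.58%) were called higher and 603 (4.38%) called lower with a difference of at least 1 on the log2 scale. In 9377 of the genes tested (68.1%) the 3 libraries of one arm did not overlap those of the other. Protein-coding genes made up 817 of the 907 larger rises (90.1%) and 376 of the 603 larger falls (62.4%), beside 82.6% of all genes tested. The larger falls also held 90 pseudogenes (14.9%), 26 small nucleolar RNAs (4.31%) and 18 transfer RNAs (2.99%). Over all genes tested these shares were 4.18%, 1.13% and 0.152%. None of these RNAs can be placed with certainty where reads are shared with near-identical copies. With such a share of all genes called, each group of genes below is read against these percentages and against the median difference of all genes, -0.087.

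**Figure D1:**
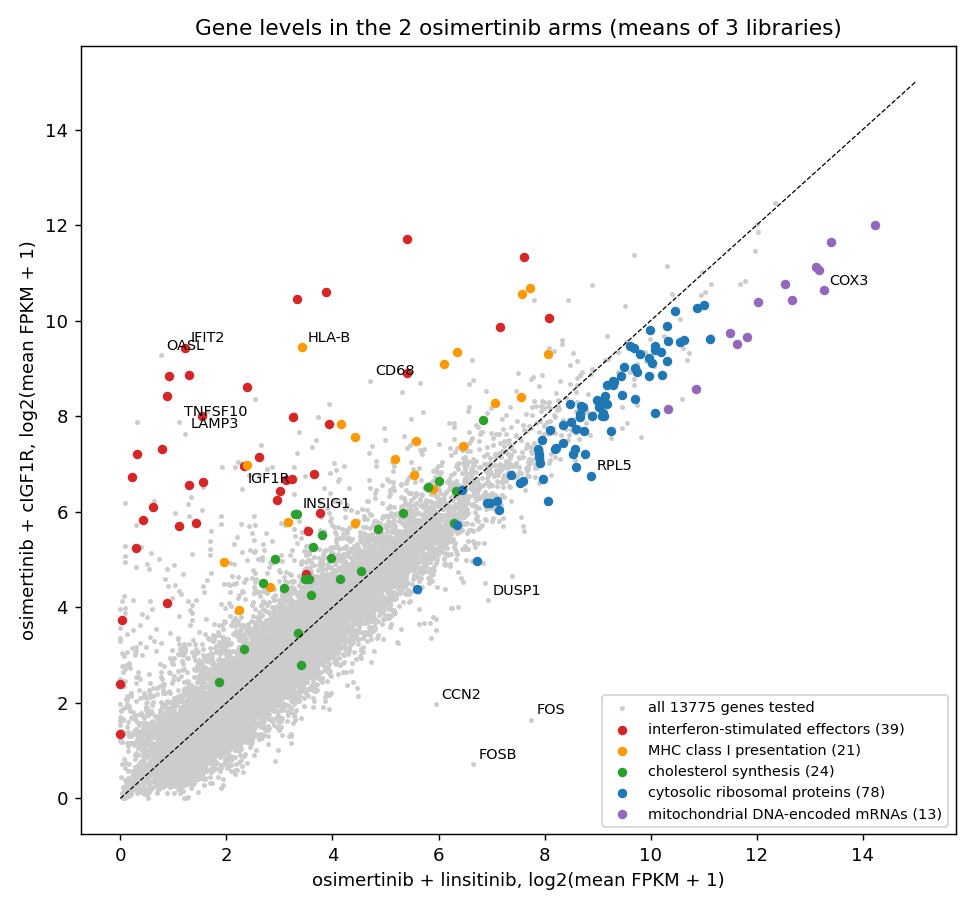
Mean level of each tested gene in the linsitinib arm (x axis) and the cIGF1R arm (y axis), both as log2(mean FPKM + 1) of 3 libraries; the dashed line marks equal levels and colours mark 5 gene lists. Interferon-stimulated effectors and MHC class I genes lie above the line, with OASL at 617 against 0.702 FPKM, and mRNAs of mitochondrial DNA lie below it, with COX3 at 1586 against 9817.

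The gene the circular RNA is named after served as a check of the labels. IGF1R (chromosome 15 from 98648539 to 98964530, GRCh38) stood at 81.4, 82.3 and 101 FPKM in the cIGF1R arm, 4.41, 3.56 and 3.73 in the linsitinib arm and 3.76, 4.41 and 4.23 in vehicle. All 3 libraries of the cIGF1R arm were above every other library, by a log2 difference of 4.18 (SE 0.11, limma adjusted p = 1.77e-12). Gene-level values cannot separate fragments of the circular RNA from those of the linear mRNA, so this shows which libraries carry extra IGF1R sequence and not how much receptor mRNA there was. INSR, which encodes the insulin receptor and the other target of linsitinib, was at 2.28, 2.33 and 1.64 FPKM in the cIGF1R arm and 2.05, 2.3 and 2.29 in the linsitinib arm (limma adjusted p = 0.619). EGFR was at 49.9, 49.6 and 30.4 FPKM in the cIGF1R arm and 41.6, 37.5 and 36.2 in the linsitinib arm (limma adjusted p = 0.519). Both genes overlapped between the arms and neither passed. Replicate 3 of the cIGF1R arm was the low one for EGFR, and without it EGFR passed as higher (limma adjusted p = 0.0205; range over the alternatives 0.0205 to 0.94).

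The largest rises were those of antiviral genes. Beginning with the ligands, the type III interferon gene IFNL1 was at 17.9, 16.4 and 19.3 FPKM in the cIGF1R arm and at 0, 0.125 and 0 in the linsitinib arm, and it was listed at 0 in all 3 vehicle libraries. IFNB1, a type I interferon that many cell types make, was at 2.03, 1.72 and 2.43 FPKM and was listed at 0 in all 6 other RNA-seq libraries. IFNL2 and IFNL3, near-identical copies whose reads can be split between them, lay between 8.13 and 11.9 FPKM in the cIGF1R libraries and at most at 0.194 in the linsitinib arm. These genes thus had measurable mRNA in each cIGF1R library, while IFNA1 did not exceed 0.407 FPKM in either arm and IFNE, an epithelial interferon, went the other way at 1.44, 1.49 and 1.19 against 2.22, 2.81 and 2.37.

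The receptors differed far less than the ligands. IFNLR1, the specific chain of the type III receptor, was at 2.61, 2.59 and 2.11 against 1.36, 1.31 and 1.11 FPKM, a log2 difference of 0.60. The type I receptor chains split, with IFNAR1 higher by 0.39 and IFNAR2 lower (-0.48; limma adjusted p = 0.0173 and 0.00131). Below the receptors, JAK1 and JAK2 were higher (0.56 and 1.29) and the kinase TYK2 slightly lower (-0.29). The transcription factor genes STAT2 and IRF9, which act below these kinases, were higher by 2.87 and 1.92, and IRF7, which amplifies interferon production, by 3.74. IRF3, which starts that production and is itself controlled by phosphorylation, was at 74.3, 74.9 and 96.7 against 88.5, 89.7 and 85 FPKM and did not pass (limma adjusted p = 0.414). The feedback inhibitor USP18 was higher by 4.96. In all, 20 of 25 tested ligands, receptors and signal transducers were higher, 3 lower and 2 not called, with a median difference of 1.28. IFNB1, IFNL1, IFNL2, IFNL3 and JAK2 were under 1 FPKM in all other libraries and passed the filter through the cIGF1R arm alone, so their direction was fixed by the filter; of the other 20 genes 15 were higher and 3 lower.

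The sensors that feed interferon production moved in the same direction. Of 19 nucleic acid sensors and their adaptors and kinases, 18 were higher and 1 lower, with a median of 2.62. ZBP1, IFI16, OAS2 and OASL passed the filter through the cIGF1R arm alone, and of the other 15 genes 14 were higher. DDX58, which encodes the RNA sensor RIG-I, was at 118, 121 and 124 FPKM against 4.01, 3.08 and 3.32, and IFIH1, which encodes MDA5, at 70.1, 71.9 and 70.2 against 1.34, 1.67 and 1.24. The 2'-5'-oligoadenylate synthetases, which make the activator of the RNA-cutting enzyme RNase L, were among the largest rises of all: OAS2 was at 244, 249 and 209 FPKM against 0.216, 0.28 and 0.252. OASL, a family member without that enzyme activity, was at 608, 611 and 632 FPKM in the cIGF1R arm, 0.713, 0.861 and 0.532 in the linsitinib arm and 0.635, 0.84 and 0.616 in vehicle. Its log2 difference of 8.51 (SE 0.096, limma adjusted p = 1.22e-15) was the largest of all tested genes, whereas the linsitinib arm and vehicle differed by 0.002. On the DNA side, IFI16 was at 38.3, 38.5 and 36.7 FPKM against 0.0734, 0.0833 and 0.0307, CGAS at 4.89, 5.88 and 6.63 against 1.99, 1.61 and 1.6, and its adaptor STING1 at 30, 31.1 and 32.7 against 5.37, 5.27 and 4.57. The adaptor MAVS, through which RIG-I and MDA5 signal, was the 1 member that was lower, at 20, 19.4 and 14.3 against 23.2, 23.6 and 23.3 (limma adjusted p = 0.00998).

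The 39 tested interferon-stimulated effectors were higher in the cIGF1R arm without overlap, with a median difference of 4.60 and a range of 1.19 to 8.22. For 9 of them, MX2, TRIM22 and XAF1 among them, the filter was passed through the cIGF1R arm alone, which fixes their direction, and the other 30 were higher too. IFIT2, whose protein binds viral RNA, was at 671, 677 and 725 FPKM in the cIGF1R arm, 1.1, 1.34 and 1.52 in the linsitinib arm and 0.649, 0.797 and 0.676 in vehicle (log2 difference 8.22, SE 0.093, limma adjusted p = 1.22e-15). The family members IFIT3 and IFIT1, whose promoters are printed above, followed with 7.58 and 7.55. IFI27, a mitochondrial protein used as a marker of interferon exposure, was at 407, 398 and 563 FPKM against 1.61, 0.556 and 0.475. The membrane protein IFITM1, which hinders viral entry, reached 1314, 1311 and 1594 FPKM from 9.3, 8.94 and 9.07, and IFI6 1333, 1401 and 1919.8 from 13.2, 13.9 and 14.2. MX2 and TRIM22, which restrict retroviruses, and XAF1, an antagonist of the caspase inhibitor XIAP, were higher by 6.54, 6.89 and 6.50. Summed over the list, these genes held 14956 to 18538 FPKM in the cIGF1R arm, 798 to 863 in the linsitinib arm and 593 to 636 in vehicle. From vehicle the median change was 4.97 in the cIGF1R arm and 0.37 in the linsitinib arm, where 26 of the 39 also passed as higher. Both comparisons use the same vehicle libraries.

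**Figure D2:**
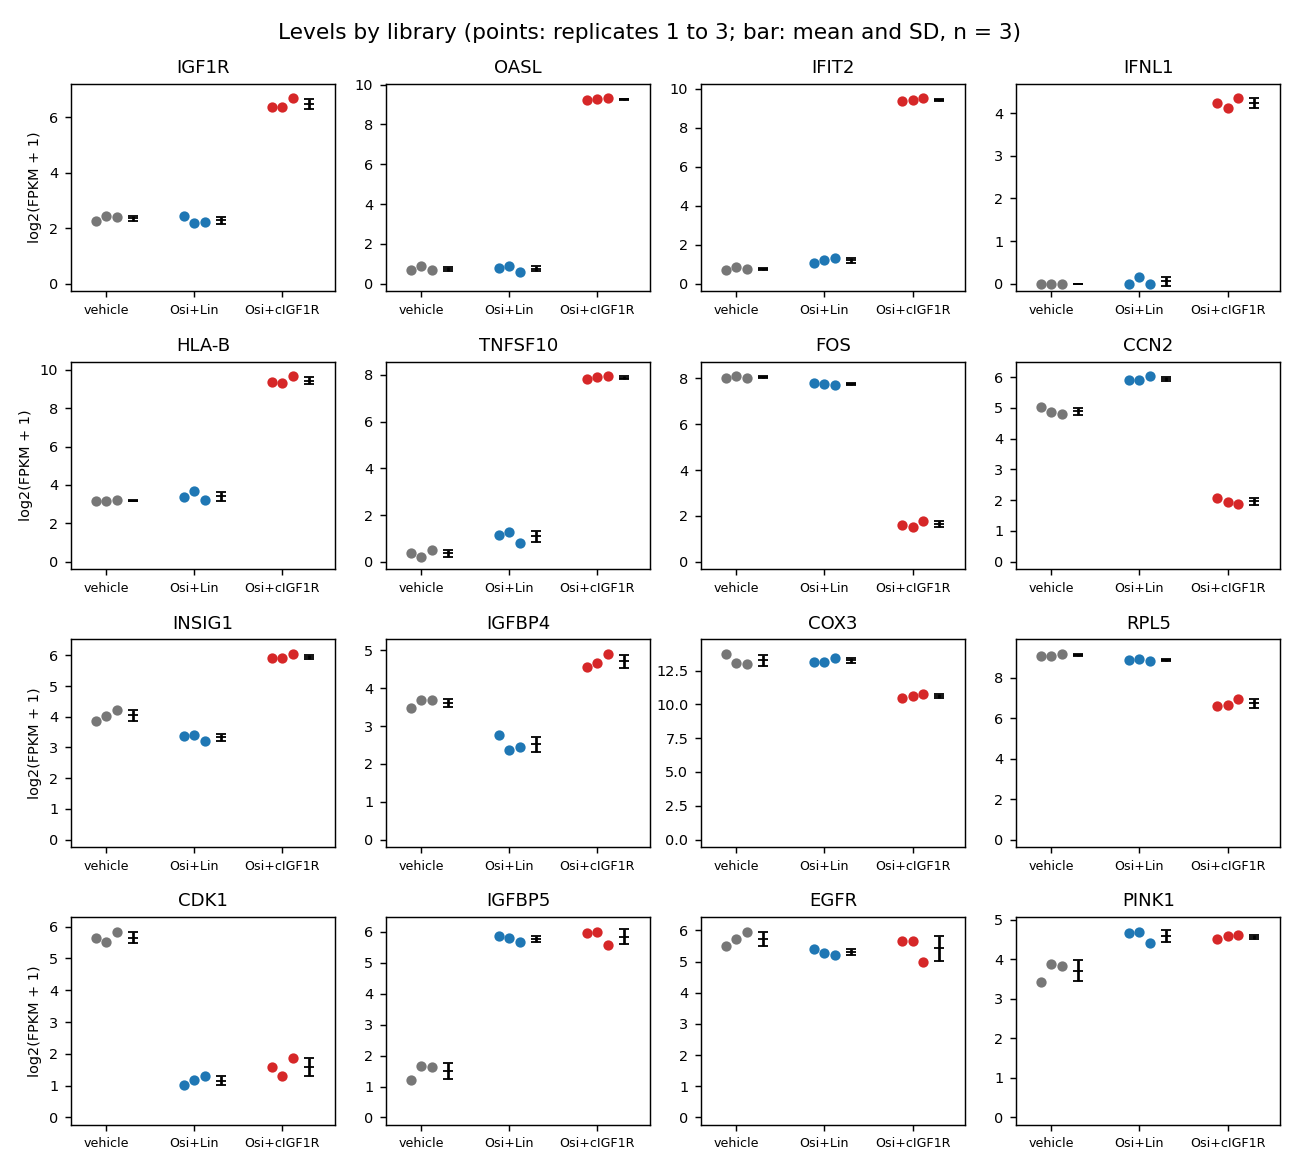
Level of 16 genes in each RNA-seq library as log2(FPKM + 1), with vehicle in grey, the linsitinib arm in blue and the cIGF1R arm in red; bars give mean and SD (n = 3). OASL, IFIT2, IFNL1, HLA-B and TNFSF10 are high in the 3 cIGF1R libraries alone, FOS and CCN2 are low there, INSIG1 and IGFBP4 lie on opposite sides of vehicle, and IGFBP5, EGFR and PINK1 overlap between the arms.

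Antigen presentation rose with the effectors. HLA-B, which shows peptides to T cells (chromosome 6 from 31353875 to 31357179), was at 647, 639 and 807 FPKM in the cIGF1R arm, 9.2, 11.7 and 8.29 in the linsitinib arm and 7.96, 7.98 and 8.36 in vehicle (log2 difference 6.03, SE 0.12, limma adjusted p = 1.76e-13). HLA-C was at 199.6, 196 and 170.1 FPKM in the linsitinib arm already and at 1415, 1396 and 1723 in the cIGF1R arm. These genes are alike in sequence and differ between people, so reads can be assigned to the wrong one or lost. HLA-F, the peptide transporter TAP1 and the immunoproteasome subunit PSMB9 were higher by 4.57, 3.68 and 3.12. All 21 MHC class I genes tested passed as higher, with a median of 1.93. MHC class II genes, which epithelial cells make little of, were much lower in level: only 6 of 12 passed the filter, all 6 higher. CD74 and HLA-DRA passed it through the cIGF1R arm alone, which fixed their direction, and the other 4 were higher too. With so few genes tested, that count says little. CD74, the invariant chain, was at 5.24, 3.49 and 5.24 FPKM and HLA-DRA at 1.36, 1.59 and 2.06, and both were listed at 0 in the 3 linsitinib libraries. CTSS, a protease that trims the invariant chain, reached 60.4, 62.1 and 72.6 FPKM from 1.77, 1.94 and 1.96.

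The chemokines named here went in both directions. CCL5, which attracts T cells, was at 66.4, 69.3 and 78.8 FPKM in the cIGF1R arm against 0.0643, 0.0375 and 0.0788 in the linsitinib arm. The interferon-induced chemokine CXCL10 was at 16, 15 and 19.2 against 0.244, 0.124 and 0.167, and CXCL11 was at 10.7, 9.51 and 12.2 and listed at 0 in the linsitinib arm. Of 19 chemokine and NF-kB genes, 9 were higher, 6 lower and 4 not called, with a median of 0.24, so its members did not go one way. CXCL10, CXCL11 and CCL5 passed the filter through the cIGF1R arm alone and CXCL3 through the linsitinib arm alone, which fixed their direction. IL1B passed it through vehicle alone. Without the genes that passed through the cIGF1R arm alone, 6 of 16 were higher, 6 lower and 4 not called. NFKB2, a subunit of the alternative NF-kB pathway, was among those lower, at 28.7, 28.3 and 29.4 against 75.4, 74.8 and 70.5 FPKM, and so were CXCL2 and CXCL3, chemokines of neutrophils (-0.98 and -0.45).

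Death receptors and caspases were higher in 16 of 19 cases, with 0 lower and a median of 0.96. FAS and CASP1 passed the filter through the cIGF1R arm alone, which fixed their direction. Of the other 17 genes 14 were higher and 0 lower. TNFSF10, which encodes the death ligand TRAIL, was at 223, 237 and 244 FPKM in the cIGF1R arm against 1.24, 1.43 and 0.749 in the linsitinib arm (log2 difference 6.80, SE 0.12, limma adjusted p = 6.60e-14). CASP1, the inflammasome caspase, was at 13.8, 13.8 and 17.1 against 0.0938, 0.0282 and 0.084, and MLKL, which executes necroptosis, at 18, 18.7 and 20.3 against 2.01, 1.65 and 2.29. The death receptor FAS was higher by 1.97, and CFLAR, which blocks caspase-8, by 1.54, so that genes of opposed function rose. The BCL2 family was as mixed, with 8 of 16 higher and 4 lower. The sensitizer PMAIP1, also called NOXA, was at 27.2, 27.9 and 32.6 against 3.09, 3.39 and 3.03 FPKM, and its target MCL1, a survival protein, at 104, 104 and 98.8 against 32.2, 30.5 and 31.7. The effector BAX was lower (-0.57). No measure of cell death is in these data.

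The largest falls were a small set of immediate early genes. FOS, a subunit of the transcription factor AP-1 (chromosome 14 from 75278828 to 75282230), was at 2.05, 1.9 and 2.44 FPKM in the cIGF1R arm, 219.8, 215 and 209 in the linsitinib arm and 260.0, 271 and 259 in vehicle. Its log2 difference between arms was -6.11 (SE 0.091, limma adjusted p = 8.99e-15). FOSB was at 0.607, 0.691 and 0.633 FPKM against 94.4, 97.5 and 107 in the linsitinib arm and 88.7, 65.2 and 62 in vehicle. In the linsitinib arm FOS was slightly below vehicle (-0.29) and FOSB slightly above it (0.48), and both passed (limma adjusted p = 0.0154 and 0.0047). Both genes were low in all 3 libraries of the cIGF1R arm. JUN, their partner in AP-1, differed less, at 31.9, 29.4 and 30.6 against 94.2, 89.1 and 88 FPKM. DUSP1, a phosphatase of stress kinases, was at 16.6, 16.9 and 16.7 FPKM against 124, 118 and 120.2, with vehicle between them at 29.1, 29.8 and 27.3, and ATF3, a stress-induced AP-1 relative, at 8.54, 8.82 and 8.24 against 34.3, 37.4 and 38.1. CCN2, a matricellular growth factor and YAP target, was at 3.23, 2.87 and 2.63 FPKM against 58.6, 59.6 and 64.2 in the linsitinib arm and 31.6, 28.1 and 26.8 in vehicle, a log2 difference of -3.98 between the arms. Its relative CCN1 was lower by less (-1.50). CCN2 did not stand for its list: of 25 YAP and TEAD targets 12 were higher and 3 lower, and ANKRD1 and NT5E were higher by 1.91 and 2.06.

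The outputs of the ERK pathway, a list that holds FOS, FOSB and JUN too, were mixed. Of 23 tested outputs, 11 were higher in the cIGF1R arm, 4 lower and 8 not called, with a median of 0.24. DUSP6, an ERK phosphatase used as a readout of the pathway, was at 0.0921, 0.0876 and 0.0462 FPKM against 0.207, 0.214 and 0.314 in the linsitinib arm and 15.4, 13.1 and 13.1 in vehicle (limma adjusted p between arms = 0.0784). EGR1, immediate early like FOS, was at 0.6, 0.264 and 0.301 against 0.103, 0.16 and 0.259 FPKM and did not pass (limma adjusted p = 0.0884), and both arms were far below vehicle at 49.1, 56.3 and 57. EPHA2, DUSP4 and CCND1 were higher in the cIGF1R arm than in the linsitinib arm by 1.44, 1.10 and 1.01, and below vehicle in both. The median change from vehicle over these outputs was -1.77 in the cIGF1R arm and -2.0 in the linsitinib arm. In that list 6 of the 23 genes, DUSP6, EGR1, SPRY4, SPRED1, ETV5 and PHLDA1, passed the filter through vehicle alone. Their direction from vehicle was thus fixed by the filter. The AP-1 site TGANTCA was found on the promoters of 1 of 15 (6.67%) of these outputs with an entry, near the 706 of 9908 (7.13%) of all tested genes.

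**Figure D3:**
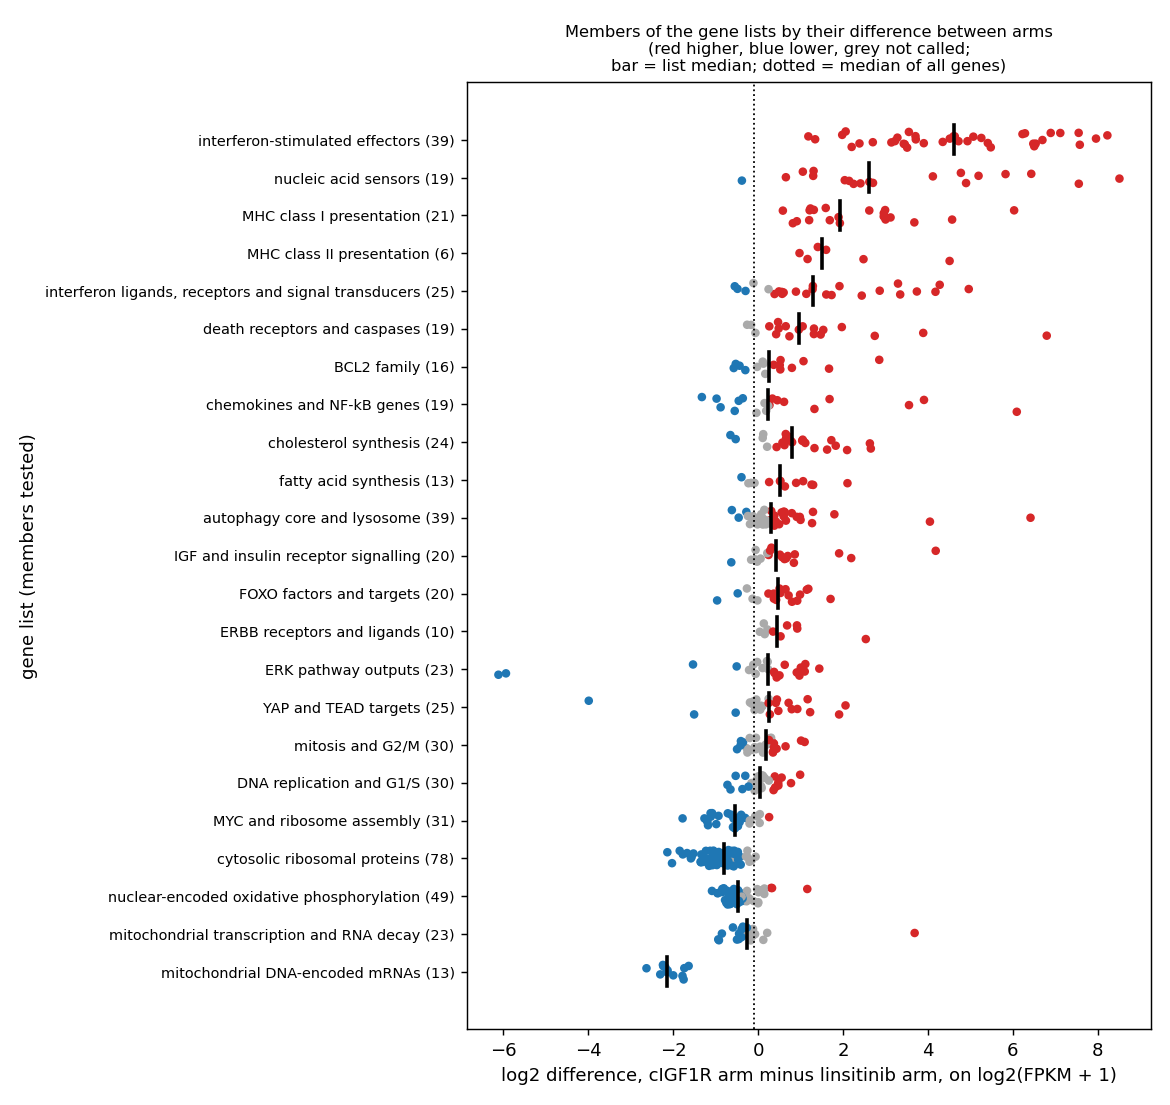
Log2 difference between the arms for the tested members of 23 gene lists, each point a gene, coloured by its call at an adjusted p of 0.05; black bars are list medians and the dotted line the median of all genes, -0.087. Interferon and MHC lists lie to the right of the line, the mitosis list slightly to the right (0.19) and the replication list nearer to it (0.05). Ribosomal and mitochondrial lists lie to the left, down to a median of -2.13 for mRNAs of mitochondrial DNA.

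Transcripts of mitochondrial DNA were lower in the cIGF1R arm. COX3, a subunit of cytochrome c oxidase, was at 1454, 1562 and 1742 FPKM in the cIGF1R arm, 8995, 9158 and 11299 in the linsitinib arm and 13424, 8611 and 8255 in vehicle. All 13 mRNAs of mitochondrial DNA passed as lower, with a median of -2.13 and a range of -2.63 to -1.63, and quantile normalization reduced that median to -1.28. Together they held 5.95%, 6.41% and 5.28% of the FPKM total in replicates 1 to 3 of the cIGF1R arm and 18.7%, 19.1% and 23.3% in the linsitinib arm. Vehicle lay at 27.6%, 19.0% and 18.3%, so the linsitinib arm lay within the range of vehicle and the cIGF1R arm below it. Because FPKM is scaled to the library, its values depend on how much of the library these genes take, and with totals set equal without them 3714 genes were higher and 4403 lower. The mitochondrial transfer RNAs TRNE, TRNH, TRNS2 and TRNL2, and MTCO3P12, a nuclear copy of COX3, were also among the 12 largest falls. Their reads cannot be told apart from those of neighbouring or copied sequence.

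Nuclear genes of the same organelle gave smaller differences. Of 49 nuclear-encoded subunits of oxidative phosphorylation 34 were lower, 3 higher and 12 not called, with a median of -0.47. NDUFS8, a complex I subunit, was at 56.5, 58.8 and 74.5 against 128, 147 and 128 FPKM, and NDUFA9, another, was higher at 10.2, 10.4 and 12.1 against 4.9, 4.56 and 3.59. Of 23 genes that transcribe mitochondrial DNA or process its RNA 12 were lower and 1 higher. POLRMT, the mitochondrial RNA polymerase, was at 8.77, 8.36 and 9.2 against 16.3, 16.3 and 17.3 FPKM, and TFAM, which packages mitochondrial DNA, at 3.65, 4.07 and 3.37 against 3.25, 3.08 and 3.6 (limma adjusted p = 0.391). The 1 that was higher, PNPT1, encodes polynucleotide phosphorylase, an exonuclease of mitochondrial RNA that is also induced by interferon. It stood at 39.6, 40.6 and 41.9 FPKM in the cIGF1R arm, 2.21, 2.27 and 2.23 in the linsitinib arm and 4.94, 4.72 and 5.42 in vehicle, a log2 difference of 3.69 between the arms. Whether PNPT1 has a part in the fall of mitochondrial RNA was not tested.

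Genes of mitophagy, the removal of mitochondria by autophagy, were split, with 8 of 24 higher, 6 lower and 10 not called. PINK1, the kinase that marks damaged mitochondria, was at 21.7, 23.2 and 23.3 FPKM in the cIGF1R arm and 24.2, 24.7 and 20.2 in the linsitinib arm, above 9.64, 13.8 and 13.2 in vehicle. The 2 arms overlapped and did not pass (log2 difference -0.014, SE 0.12, limma adjusted p = 0.932). VDAC1, a channel of the outer membrane and a substrate in this pathway, was lower, at 48.1, 47.9 and 52.9 against 69.8, 72.1 and 63.5 FPKM (limma adjusted p = 0.0021). The receptors OPTN and CALCOCO2, which link tagged cargo to autophagosomes, were higher by 2.19 and 1.14. Of 39 genes of the autophagy core and the lysosome 21 were higher and 3 lower, with CTSL and CTSB, lysosomal proteases, higher by 1.80 and 1.27. Among the 3 that were lower was ULK1, the kinase that starts autophagy (-0.45).

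Ribosomal proteins were lower in the cIGF1R arm as a body. Of 78 tested, 71 passed as lower, 0 as higher and 7 in neither direction, and the median was -0.80; quantile normalization gave 70 lower and 2 higher. RPL5, which also binds the p53 regulator MDM2, was at 96, 99.7 and 126 FPKM in the cIGF1R arm, 467, 486 and 457 in the linsitinib arm and 551, 546 and 578 in vehicle. RPL3 was lower by 2.02 and RPL4 by 1.84 on the log2 scale. These genes have many processed pseudogenes, and the pseudogene RPL3P4 moved with its parent (-2.37). Summed over the list, the cIGF1R libraries held 25286 to 34332 FPKM, with replicate 3 the highest, and the linsitinib libraries 47119 to 51565, which do not overlap. From vehicle the median change was -0.97 in the cIGF1R arm and -0.17 in the linsitinib arm.

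Genes that assemble ribosomes and other MYC targets pointed the same way, with 24 of 31 lower, 1 higher and a median of -0.54. MYC itself was at 6.6, 6.65 and 6.98 FPKM against 10.2, 10.2 and 9.57 (limma adjusted p = 2.28e-04). ODC1, the first enzyme of polyamine synthesis, was at 2.94, 3.33 and 4.11 against 15.2, 14.4 and 13 FPKM and 27.7, 32.2 and 36.1 in vehicle, and the nucleolar protein NPM1 at 178, 179 and 222 against 474, 456 and 455. All 31 were below vehicle in both arms, with medians of -1.75 in the cIGF1R arm and -1.16 in the linsitinib arm. WDR12 and UTP20 among them passed the filter through vehicle alone, which fixed their direction from vehicle. DANCR, a long noncoding RNA that hosts small nucleolar RNAs, was at 3.2, 3.56 and 3.54 against 22.1, 23.5 and 18.6. The E-box CACGTG, which MYC binds, was found on the promoters of 13 of 25 (52%) of these genes with an entry, against 1255 of 9908 (12.7%) of all tested genes.

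Genes of sterol and fatty acid synthesis were higher in the cIGF1R arm, and many lay on opposite sides of vehicle. Of 24 cholesterol genes 19 were higher, 2 lower and 3 not called, with a median of 0.79. INSIG1, which retains the SREBP factors in the endoplasmic reticulum and is itself their target, was at 59.4, 59.7 and 64.7 FPKM in the cIGF1R arm, 9.26, 9.61 and 8.25 in the linsitinib arm and 13.6, 15.4 and 17.6 in vehicle (log2 difference between arms 2.63, SE 0.10, limma adjusted p = 1.46e-10). The sterol enzymes CYP51A1, MSMO1 and HMGCS1 were higher by 1.83, 1.73 and 1.63. SCD, which desaturates fatty acids, was at 463, 469 and 368 FPKM against 109.6, 99.6 and 89.7 and 129, 168 and 200.5 in vehicle, and SREBF1, the factor behind that branch, at 92.3, 92.3 and 94.3 against 39.6, 39.1 and 36.1 and 68.8, 75 and 66.7. Of 13 fatty acid genes 9 were higher and 1 lower. A sterol element, searched as TCACNCCAC, was found on the promoters of 1 of 17 (5.88%) of the cholesterol genes with an entry and of 136 of 9908 (1.37%) of all tested genes. The median change of the cholesterol genes from vehicle was 0.62 in the cIGF1R arm and -0.37 in the linsitinib arm, and for the fatty acid genes it was -0.12 and -0.69.

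Genes of the IGF axis and of the FOXO factors, which AKT holds out of the nucleus, were compared next. Of 20 tested IGF and insulin signalling genes, IGF1R among them, 13 were higher, 1 lower and 6 not called, with a median of 0.42. IGFBP4, a binding protein that sequesters insulin-like growth factors, was at 22.8, 24.5 and 28.9 FPKM in the cIGF1R arm, 5.74, 4.18 and 4.41 in the linsitinib arm and 10.2, 11.8 and 11.8 in vehicle, so that vehicle lay between the arms without overlap. IGFBP6, another binding protein, showed the same order, with 114, 121 and 159.8 FPKM in the cIGF1R arm, 33.6, 34.6 and 33.6 in the linsitinib arm and 50, 48.5 and 42.5 in vehicle. IGFBP5 was at 61.6, 62.8 and 46.5 FPKM against 57.5, 54.5 and 50.5, far above vehicle at 1.32, 2.15 and 2.11 in both arms, and the arms did not pass (limma adjusted p = 0.722). IRS2, an adaptor below both receptors, was at 4.36, 4.32 and 3.71 against 2.35, 2.46 and 2.56 (limma adjusted p = 3.11e-04). FOXO factors and targets were higher in 15 of 20 cases and lower in 2, led by TXNIP, an inhibitor of glucose uptake, at 111, 113 and 119 against 35.7, 35.1 and 31.8 FPKM. The FOXO site GTAAACA was found on the promoters of 5 of 16 (31.2%) of them, against 355 of 9908 (3.58%) of all tested genes. Their median change from vehicle was 1.17 in the cIGF1R arm and 0.75 in the linsitinib arm. ERBB3, a partner of EGFR that FOXO factors induce, was at 71.2, 72.4 and 58.2 against 37, 35.1 and 32.5 FPKM, and the EGFR ligand BTC at 10, 9.98 and 10.3 against 0.967, 0.82 and 0.947, a gene that passed the filter through the cIGF1R arm alone.

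By their list medians, cell-cycle genes differed less between the arms than from vehicle. All 30 mitosis genes and all 30 genes of DNA replication had fallen from vehicle in both arms, with medians of -3.05 and -1.90 in the cIGF1R arm and -3.18 and -1.89 in the linsitinib arm. Of these, 10 mitosis genes and 10 replication genes were under 1 FPKM in every library of both arms. They passed the filter through vehicle alone, so their direction from vehicle was fixed by the filter. At such low levels a difference between the arms is also understated. Between the arms, 13 mitosis genes were higher, 4 lower and 13 not called, with a median of 0.19, and 8 replication genes were higher, 6 lower and 16 not called, with a median of 0.05. Over all genes tested 25.9% were higher and 34.8% lower, with a median of -0.087. Against that background the mitosis genes leaned towards higher in the cIGF1R arm. CDK1, the kinase of entry into mitosis, was at 2.02, 1.49 and 2.68 FPKM against 1.02, 1.25 and 1.46, compared with 48.5, 44.6 and 55.8 in vehicle. AURKB, a kinase of chromosome segregation, was at 4.26, 5.22 and 5.26 against 1.69, 2.23 and 1.4, with vehicle at 54.5, 48.3 and 45.1. In bulk libraries, fewer cycling cells and less of these mRNAs per cell cannot be told apart. The element TTTGAA, known from promoters of mitotic genes, was found in 16 of 24 (66.7%) of the mitosis genes with an entry, against 1294 of 9908 (13.1%) of all tested genes. The CDK inhibitor gene CDKN1A, a p53 target, was at 70.7, 75.3 and 77 FPKM against 24.9, 25.6 and 22 and 26.7, 31.1 and 31.8 in vehicle, and BTG2, another antiproliferative gene, at 9.68, 8.73 and 9.14 against 2.6, 2.15 and 1.73. Over 26 CDK inhibitors and p53 targets, 12 were higher, 5 lower and 9 not called. FAS of that list passed the filter through the cIGF1R arm alone, and of the other 25 genes 11 were higher and 5 lower.

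Structural and metabolic genes showed single large differences inside mixed lists. TGM2, a transglutaminase that crosslinks matrix proteins, was at 36.2, 36.1 and 30.1 FPKM in the cIGF1R arm, 0.635, 0.501 and 0.348 in the linsitinib arm and 21.9, 28.2 and 30.2 in vehicle, so the linsitinib arm was the one that stood away. FN1, which encodes fibronectin, was at 3071, 2977 and 1873 against 933, 827 and 703, with cIGF1R replicate 3 the lowest of its arm. Of 20 mesenchymal genes 13 were higher and 3 lower, and CDH2, a cadherin of mesenchymal cells, was among the latter (-0.90). LOX passed the filter through the cIGF1R arm alone, and of the other 19 mesenchymal genes 12 were higher and 3 lower. Of 27 epithelial genes 15 were higher and 4 lower. KRT17, a keratin of basal cells, was at 107, 108 and 138 against 6.27, 5.46 and 5.76 FPKM, and the epithelial cadherin CDH1 at 128, 131 and 103 against 53.6, 48.2 and 44.9. HK2, which commits glucose to glycolysis, was at 14.7, 14.5 and 11.9 against 1.57, 1.39 and 1.68 FPKM, while GAPDH, often used as a reference gene, was lower at 1763, 1751 and 1959 against 3589.8, 3717 and 3271; 12 of 28 glycolysis and hypoxia genes were higher and 5 lower. NUPR1, which passed the filter through the cIGF1R arm alone, and DDIT4, both stress-induced regulators, were higher by 3.24 and 2.52 in a list of 23 genes of the ATF4 response with 11 higher and 5 lower. CHAC1 of that list passed the filter in the same way, and of the other 21 genes 9 were higher and 5 lower. In the NRF2 list 11 of 24 were lower and 3 higher, and the antioxidant TXN was one of those lower, at 124, 135 and 182 against 279, 299 and 259. Of 10 tested replication-dependent histone genes, 5 were higher and 1 lower.

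Genes that moved in opposite directions from vehicle were 255 that rose in the cIGF1R arm and fell in the linsitinib arm (1.85% of the genes tested) and 361 that fell in the cIGF1R arm and rose in the linsitinib arm (2.62%). Rescaling by the median of ratios turned the balance of the 2 counts, to 373 and 203, and without a filter on low values they were 174 and 225. Both comparisons share the vehicle libraries, and the second count fell to 230 without DMSO_EV replicate 2, while the first was 198 to 287 with each library left out in turn. From vehicle alone, 4563 genes (33.1%) rose and 4936 (35.8%) fell in the cIGF1R arm, and 3999 (29.0%) rose and 3242 (23.5%) fell in the linsitinib arm. Most opposite changes were small. The median absolute change of the 255 genes was 0.63 in the cIGF1R arm and 0.51 in the linsitinib arm, and both changes reached 1 in 5 of the 255 and 2 of the 361. As members of these sets were chosen by the same values, the genes below are described and not tested further.

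The 5 genes with both changes of at least 1 that rose in the cIGF1R arm were CEACAM6, LGALS9B, IGFBP4, SIRPB2 and SH3KBP1. CEACAM6, an adhesion molecule of epithelial and myeloid cells, was at 16.6, 17.5 and 15.3 FPKM in the cIGF1R arm, 3, 4.26 and 6.65 in vehicle and 0.537, 0.3 and 0.562 in the linsitinib arm, 3 levels without overlap. LGALS9B, a copy of the galectin-9 gene whose reads may come from its relatives, was at 7.19, 7.81 and 8.48 FPKM in the cIGF1R arm, 1.4, 1.82 and 1.39 in vehicle and 0.135, 0.185 and 0.167 in the linsitinib arm. SH3KBP1, an adaptor that promotes the internalization of receptor kinases such as EGFR, was at 16.5, 16.1 and 14.7 FPKM in the cIGF1R arm, 5.9, 7.26 and 8.65 in vehicle and 2.76, 2.86 and 2.51 in the linsitinib arm. In these 3 genes each cIGF1R library lay above vehicle and each linsitinib library below it. SIRPB2 varied within the cIGF1R arm, at 7.38, 7.63 and 2.76 FPKM, and replicate 3 fell inside the range of vehicle, 3.01, 2.29 and 1.36. OAS3 and PNPT1, both interferon-induced, were below vehicle in the linsitinib arm (-0.97 and -0.89) and above it in the cIGF1R arm (5.46 and 2.79). The same held for SPDEF, an epithelial ETS factor, at -1.06 and 0.89.

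**Figure D4:**
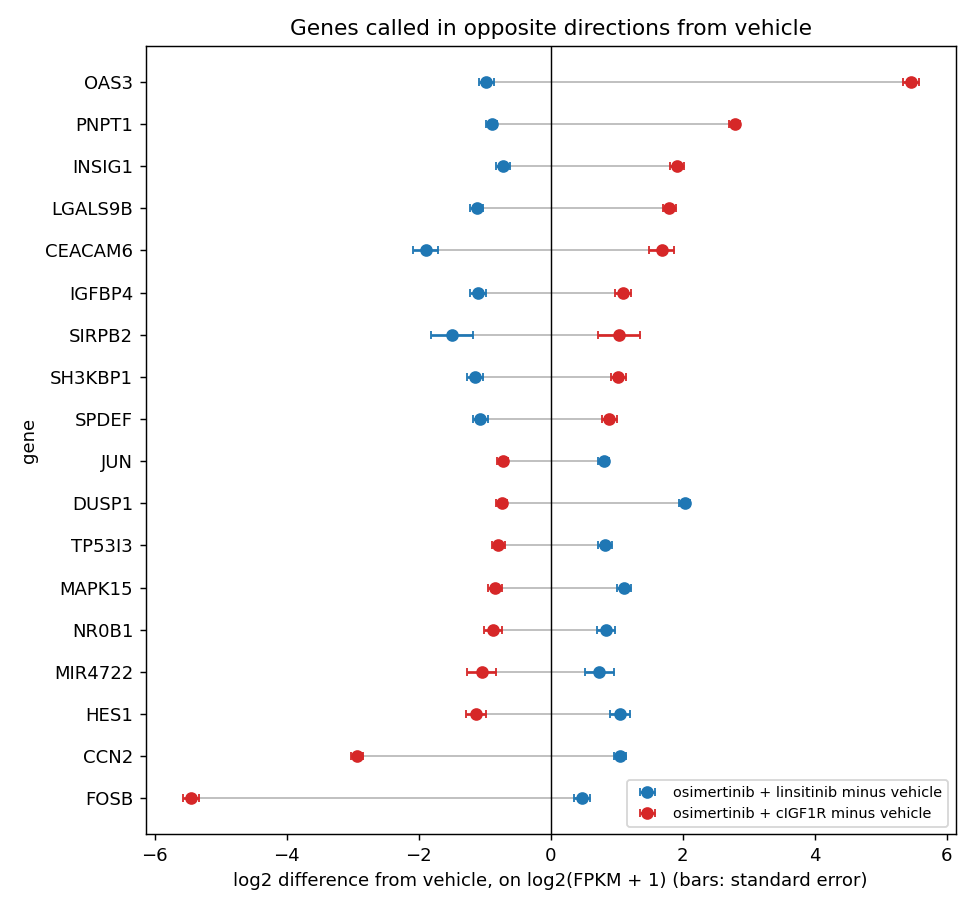
Log2 difference from vehicle of the cIGF1R arm (red) and the linsitinib arm (blue) for 18 genes called in opposite directions; bars are standard errors of the limma fit and both arms share the vehicle libraries. CEACAM6 lies at 1.68 and -1.90, CCN2 at -2.93 and 1.05, and OAS3 (5.46) and FOSB (-5.45) have the largest changes in the cIGF1R arm.

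On the other side, CCN2 and HES1 had both changes of at least 1. HES1, a transcriptional repressor of the Notch pathway, was at 12.1, 11.8 and 13.7 FPKM in the cIGF1R arm, 36.4, 26.7 and 24 in vehicle and 53.2, 57.7 and 71.3 in the linsitinib arm, without overlap. DUSP1 and JUN were below vehicle in the cIGF1R arm (-0.74 and -0.73) and above it in the linsitinib arm (2.03 and 0.80). FOSB was in this set too, at -5.45 and 0.48, while FOS was not, since it was below vehicle in both arms. MAPK15, an atypical kinase of the MAP kinase family, was at 4.52, 4.76 and 4.05 FPKM in the cIGF1R arm, 10.3, 8.55 and 7.53 in vehicle and 19.8, 19.3 and 20.9 in the linsitinib arm. NR0B1, an orphan nuclear receptor, and TP53I3, a p53-induced oxidoreductase, lay on the same sides, with changes of -0.87 and -0.79 in the cIGF1R arm and 0.84 and 0.83 in the linsitinib arm. MIR4722, a microRNA gene whose value in a long-RNA library may come from its host transcript, was at 1.45, 3.09 and 3.77 FPKM in the cIGF1R arm and 11.5, 10.8 and 12.1 in the linsitinib arm.

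The lists differed in how many of their members were opposite. Among cholesterol genes, 9 of 24 rose in the cIGF1R arm and fell in the linsitinib arm, among them INSIG1, CYP51A1, MSMO1, IDI1, SQLE and MVD, and among fatty acid genes 4 of 13, SCD, SREBF1, FADS2 and ACSS2, beside 1.85% of all tested genes. Sensors held 3 such genes of 19 (CGAS, STING1 and OAS3), the MHC class I genes 3 of 21 (TAP2, PSME2 and PDIA3), the IGF axis 3 of 20 (IGFBP4, IGFBP6 and IRS2), death receptors and caspases 3 of 19, and the interferon-stimulated effectors 0 of 39, none of which was called lower than vehicle in the linsitinib arm. In the other direction no list held more than 2 members.

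Markers of other cell types were read in all 3 groups because several genes named above are also such markers. PTPRC, the defining marker of leukocytes, did not exceed 0.0352 FPKM in either arm, and CD3D, of T cells, was at 0.238 in cIGF1R replicate 2 and at 0 in the 5 other libraries of the arms. The summed leukocyte markers nevertheless stood at 430 to 457 FPKM in the cIGF1R arm and 31.6 to 36.6 in the linsitinib arm, mostly through CD68, a lysosomal protein that is also in the lysosome list, at 419.7, 418 and 445 against 26.1, 26.6 and 22.3. Of 4 leukocyte markers tested 2 were higher and 1 lower, and the part of such cells in the CD68 difference was not tested. The alveolar markers summed to 229 to 259 FPKM in the cIGF1R arm and 65.3 to 66.2 in the linsitinib arm through LAMP3, a lysosomal protein induced by interferon, at 201, 211 and 182 against 1.51, 1.48 and 1.02, while the 4 other alveolar markers tested were lower. Fibroblast markers held COL1A1 alone above the filter, at 5.51, 6.04 and 5.56 against 3.35, 3.49 and 3.2 FPKM, with DCN at most 0.0261. Of 2 endothelial markers tested 1 was higher and 1 not called, and CDH5 passed the filter through vehicle alone. Endothelial markers summed to 1.90 to 2.51 FPKM in the cIGF1R arm, 1.48 to 2.04 in the linsitinib arm and 5.74 to 5.97 in vehicle. EMCN alone among them was at 0 in every library.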

How the data were processed

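RNA-seq values of 9 libraries of H1975 cells were read from 1 table of the series with 34021 gene symbols, of which 31617 (92.9%) matched RefSeq. The unit is not named in the table; per its values it was taken as FPKM deposited by the authors, with no counts, so depth is unknown. The submitters' processing notes name Bowtie2 2.1.0, STAR, edgeR and hg38 without roles, and the rest of the upstream processing is not given in the sources used here. Per the labels' protocols the RNA was treated with RNase R and the cells exposed for 3 days, while the sample labels give 8 days, and it is not stated whether those protocol lines cover these libraries.

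Genes with at least 1 FPKM in at least 3 of the 9 libraries were tested on log2(FPKM + 1) in 1 limma 3.58.1 fit (R 4.3.3, trend and robust) of all 3 groups, with Benjamini-Hochberg adjustment over the 13775 genes and a threshold of 0.05. The fit was tested on simulated data. Alternatives were other pseudocounts (0.1 and 5), filters, scalings, a fit of the compared groups, a replicate block, and each library left out. The genes named are, by rule, the 12 largest rises and falls with a mean of at least 5 FPKM and no overlap, up to 4 called genes of each of 37 lists (5 of them markers), the 8 leading opposite genes in each direction, and genes of the design. Not every gene this rule selects is described, some are not reported here, and other list members were named to describe a list. The members and lists were chosen with earlier results of these data known. Motifs were searched with Python 3.11.15 on RefSeq promoters.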

Additional observations from a re-analysis of the deposited data

How the results depend on the processing

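No list median between the arms changed sign under the 3 other scalings. Of all list medians recomputed, 592 stayed within the spread between replicates, 70 moved and 2 reversed: DNA replication and G1/S reached -0.0096 with a filter at 5 FPKM, and histones 0 without a filter. Of the named genes, 3046 values kept their direction and call. Calls were lost in 4 cases, of CLDN4 and KRT7, and EGFR gained one. The sign changed for KRT7 (0.14 under quantile normalization) and for 3 genes that did not pass between the arms, INSR (0.030 under the median of ratios, 0.043 without Osi_cIGF1R replicate 3, -0.12 without replicate 2), IGFBP5 (-7.66e-04 and -0.015 without Osi_cIGF1R replicates 1 and 2, 0.20 without replicate 3) and PINK1 (0.12 under the median of ratios, 0.022 with equal totals, 0.017 without Osi_cIGF1R replicate 1, 0.022 and 0.037 without Osi_Lin_EV replicates 1 and 2, -0.10 without replicate 3). The cause was not tested. A filter at 5 FPKM, which tests fewer genes, left 3148 lower genes. A log2 difference of at least 1 left 907 higher and 603 lower genes, and 5 and 2 opposite genes. The 361 genes down in Osi_cIGF1R and up in Osi_Lin_EV became 225 without a filter and 203 under the median of ratios, where the 255 genes of the other direction became 174 and 373. With each library left out in turn, 3105 to 3703 genes were higher, 4177 to 4921 lower, 198 to 287 up and down, and 230 to 441 down and up; the lowest of the last came without DMSO_EV replicate 2. With replicate number as a block there were 3405 higher and 4558 lower genes, and 230 and 295 opposite genes. Deviations of libraries with the same number correlated between the arms at 0.013, -0.055 and -0.037. These values show no pairing by number, but with 3 libraries per arm they cannot exclude a shared culture or batch. Unknown depth limits what can be said of genes near 0.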

Other observations

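Some gene groups outside the lists also separated the arms; they were chosen after their values were seen, so their counts are descriptions. All 14 complement genes tested were higher in the cIGF1R arm, with a median log2 difference of 2.12. CFB, factor B of the alternative pathway, was at 1334, 1333 and 1449 FPKM in the cIGF1R arm and 239, 224 and 201 in the linsitinib arm. C1R, a protease of the classical pathway, was at 368, 362 and 362 against 39.9, 39.7 and 35.7, and SERPING1, its inhibitor, was higher by 4.87. Genes of endoplasmic reticulum chaperones and the unfolded protein response were higher in 19 of 22 cases and lower in 0, with XBP1, a factor of that response, at 152, 158 and 185 against 27.2, 28.0 and 22.7. CALR, CANX and PDIA3 of this group are also in the MHC class I list.

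Tubulins went the other way, with 13 of 14 lower. TUBB was at 50.1, 48.4 and 44.0 FPKM in the cIGF1R arm against 206, 203 and 176 in the linsitinib arm, though tubulin genes are alike and have pseudogenes that can share reads. Of 9 translation elongation factors 8 were lower, and EEF2, which moves the ribosome along mRNA, was at 191, 189.9 and 175 against 641, 629 and 552.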
